A study of Mus musculus with 6 samples.

Results

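The nuclear genes of mitochondrial complex I were read in quadriceps muscle with and without Pofut1, as 35 of the 18194 genes that the array measured. Members were genes whose platform symbol begins with Ndufa, Ndufb, Ndufc, Ndufs or Ndufv followed by a digit, which leaves out the Ndufaf assembly factors. Each gene was represented by its brightest probe set among those assigned to a single gene, by mean over 6 arrays. Of the 35 genes, 33 encode subunits of complex I. Ndufa4 carries the name for historical reasons and encodes a subunit of complex IV, and Ndufa4l2 encodes a relative of it that is known as a target of hypoxia signalling. Ndufa11 and Ndufs6 were represented only by probe sets that they share with other genes.

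Both groups were C57/Bl6 mice aged 2 months that carried a skeletal α actin cre transgene, so the recombinase is driven by the promoter of a gene of striated muscle fibres. The 3 knockout samples had floxed Pofut1 alleles (Pofut1flox/flox) and the 3 control samples had wild type Pofut1. Pofut1 encodes the enzyme that attaches O-linked fucose to EGF-like repeats, as on Notch receptors, and the comparison asks how the muscle transcriptome differs without it. Whether replicates came from different animals is not stated, and the spread behind each p-value is that of the arrays, technical variation included.

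Complex I oxidises NADH from the tricarboxylic acid cycle and fatty acid oxidation, passes the electrons to ubiquinone and pumps protons across the inner mitochondrial membrane. Its matrix arm holds the flavin and iron-sulphur clusters along which the electrons travel, and its membrane arm holds the proton channels. Core subunits are conserved from bacteria. Some are encoded in mitochondrial DNA and were not part of this list, and the others are nuclear. Around the core lie accessory subunits that are needed for assembly or stability. Muscle fibres are rich in this enzyme, most of all slow and fast oxidative fibres.

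One array, control replicate 3 by its label, differed from the other 5. Its log2 values over all genes correlated with theirs at 0.940 to 0.945, against 0.980 to 0.991 among the others, and its Gapdh 3' over 5' intensity ratio was 10.5. The ratio was 3.70 in knockout replicate 2 and 1.73 to 1.97 in the other 4 arrays. Results are therefore given with and without control replicate 3. The targeted gene, Pofut1, had intensities of 220.1, 231.1 and 194.3 in the knockout arrays. The libraries labelled as controls gave 301.4, 379.8 and 90.6, so that the last went against its label. The log2 fold change of Pofut1 was -0.02 ± 0.52 (SE; limma adjusted p = 0.998) with all arrays. Without control replicate 3 it was -0.66, with a limma adjusted p of 0.802. Markers of skeletal fibres read between 4011.2 and 13313.2 in every array. Genes restricted to heart read 40.4 to 81.6 and genes restricted to hepatocytes 46.5 to 74.6, which gives the level of probe sets whose gene is not expected in muscle.

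Complex I genes had lower values in the knockout more often than not, by small amounts, and none passed the test. Of the 35 genes 28 were lower and 7 higher (32 lower after quantile normalization), against 53.7% lower among all genes, and the median log2 fold change was -0.08, against -0.01 over all genes. The range ran from -0.31 for Ndufs5 to 0.07 for Ndufb4, and 21 genes lay within 0.1 of 0 on this scale. Limma called 0 of the 35 genes at an adjusted p of 0.05, as it called 0.0% of all genes (0 of 18194). At an unadjusted p under 0.05 it gave 1 member, Ndufv1, and 469 genes in all, or 2.58%. The same model without a trend of variance on level also called 0, with 2 members and 4.32% of all genes at an unadjusted p under 0.05. In 5 members all knockout values lay below all control values, and in 0 above, against 9.01% of all genes with no overlap in either direction. These were Ndufv1, Ndufa6, Ndufa2, Ndufb9 and Ndufa12.

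Without control replicate 3 the direction was as frequent. Then 28 members had lower values, 24 of them the same genes, against 52.0% of all genes, and the median was -0.08. Of the 35 genes 14 had no overlap between groups, 12 lower and 2 higher, against 24.5% of all genes. The 2 higher were Ndufb6 and Ndufc2, and none of their other probe sets was higher without overlap. Limma called 0 members, and 1 had an unadjusted p under 0.05 (Ndufa7), against 5.99% of all genes. Genes above the median level, among which all but 2 of the members fall, had 64.0% lower values without that array and 45.9% with it.

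**Figure D1:**
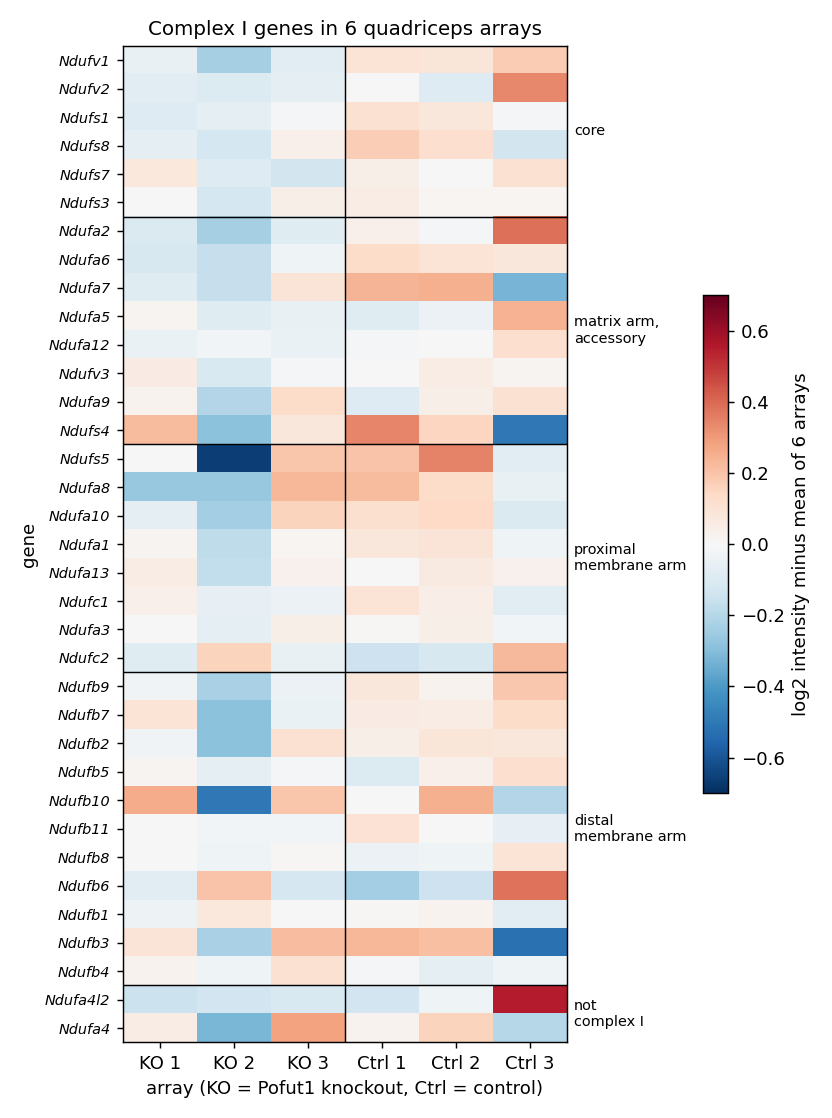
Log2 intensity of each of the 35 genes (rows, ordered by structural group and fold change) in each of the 6 arrays (columns), as the difference from the gene's mean over the arrays. Knockout replicate 2 is blue in most rows, where it was the lowest array for 17 genes, and control replicate 3 holds both high and low cells, being the highest array for 13 genes and the lowest for 7.

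Summed over the list, signal was lower in all 3 knockout arrays than in all 3 control arrays. The 35 intensities added up to 144406, 132445 and 144472 in knockout replicates 1 to 3 and to 147773, 148462 and 150263 in control replicates 1 to 3. The mean of the knockout sums was 140441 ± 6925 (SD, n = 3) and that of the control sums 148833 ± 1286 (SD, n = 3), or 5.64% lower in the knockout. Control replicate 3, which stood apart over all genes, lay close to the other controls here, and the difference was 5.18% without it. Knockout replicate 2 was the lowest of the 6, and the difference was 2.95% without it. The groups stayed separate then, as groups without overlap must when an array is left out. Bright probe sets weigh most in such a sum, and sums over all genes overlapped between groups. In RNA from whole muscle, fewer fibres rich in mitochondria and less of these transcripts per fibre cannot be told apart.

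**Figure D2:**
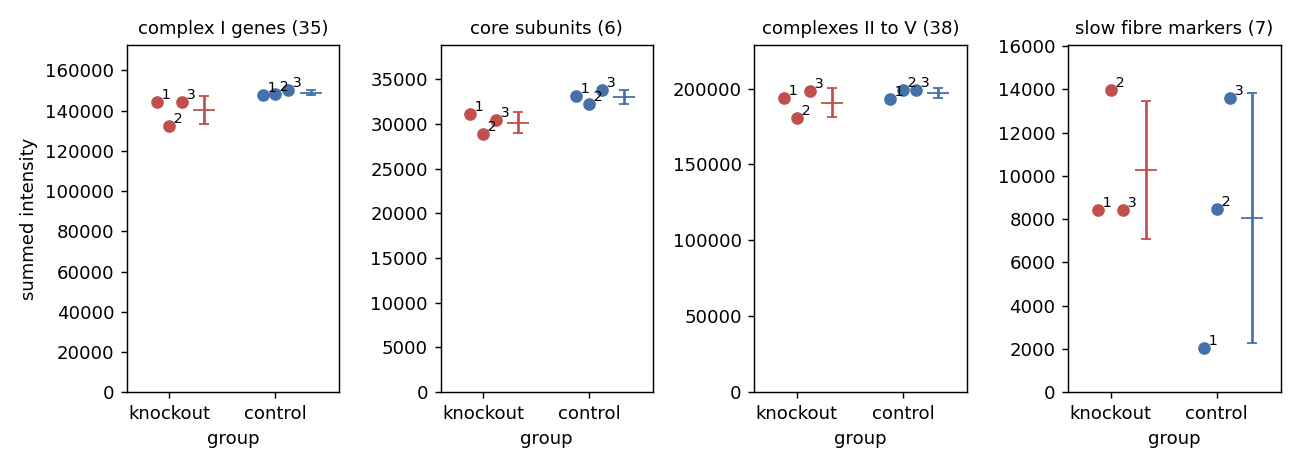
Summed intensity (axis from 0) in each array, with the replicate number beside each point and group mean ± SD (n = 3) beside the points, for complex I genes, core subunits, genes of complexes II to V and slow fibre markers. Complex I sums span 132445 to 144472 in the knockout and 147773 to 150263 in the control group, while slow fibre sums overlap widely.

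Knockout replicate 2 was the lowest of the 6 arrays for 17 of the 35 genes, or 48.6%, against 13.9% of all genes. Within the knockout group it was lowest for 27 members, against 33.3% of all genes. Its members lay at a median of -0.13 from the mean of knockout replicates 1 and 3, while all genes lay at 0.01. Genes above the median level lay at -0.04 in the same array. Of the comparison lists described below, complexes II to V lay at -0.16, assembly factors at -0.20 and mitochondrial regulators at 0.003. The lower values in this array were thus not particular to complex I. This array had the next to highest Gapdh 3' over 5' ratio, and the part of that ratio in the difference was not tested. With knockout replicate 2 set aside, 26 genes were lower and the median was -0.03.

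By their brightest probe sets the core subunits all had lower values in the knockout. Of the 6 measured, 6 were lower, with a median log2 fold change of -0.11 with all arrays and also without control replicate 3. Their summed intensity was 31073, 28863 and 30445 in the knockout arrays and 33054, 32166 and 33779 in the control arrays, 8.71% lower in the knockout by group means and without overlap. Without knockout replicate 2 the core sum was 6.79% lower.

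Ndufv1 encodes the subunit that binds NADH and the flavin, where electrons enter the complex. Intensities were 5969.5, 5286.9 and 5885.1 for the knockout and 6628.6, 6584.4 and 7006.6 for the control arrays, in replicate order. Every knockout value was below every control value. The log2 fold change was -0.24 ± 0.09 (SE; limma unadjusted p = 0.0349, adjusted p = 0.971), or 1.18-fold lower, and -0.21 without control replicate 3 (limma adjusted p = 0.802). Another probe set of Ndufv1 had the same log2 fold change of -0.24 without overlap, and the remaining one had -0.16 with overlap. The 250 bases before the RefSeq start of Ndufv1 (GRCm38.p6, chr19:4012756-4013005, minus strand) are shown because it had the smallest p of the list.
Ndufv1: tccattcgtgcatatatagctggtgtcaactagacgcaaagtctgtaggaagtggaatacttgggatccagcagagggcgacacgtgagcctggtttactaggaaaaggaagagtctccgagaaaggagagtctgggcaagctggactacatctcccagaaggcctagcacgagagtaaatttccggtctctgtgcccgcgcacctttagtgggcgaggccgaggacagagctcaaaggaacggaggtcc

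The other core subunits of the electron input module, Ndufv2 and Ndufs1, had smaller differences than Ndufv1. Ndufv2, a small iron-sulphur subunit beside Ndufv1, read 4229.4, 4185.0 and 4261.8 in the knockout arrays and 4447.4, 4190.3 and 5630.4 in the control arrays. Its difference of -0.16 ± 0.13 rested on control replicate 3 and was -0.03 without it. A nearly as bright probe set of Ndufv2 had 0.02 ± 0.11, with its lowest value, 3460.2, in control replicate 3. It read 3786.3 to 4178.7 in the knockout, below 4189.8 and 4215.5 in control replicates 1 and 2. The remaining probe set had -0.13 ± 0.14, with its highest value in control replicate 3. Ndufs1, the largest core subunit, which carries iron-sulphur clusters, read 2839.9, 2882.6 and 2993.8 in the knockout and 3257.4, 3187.8 and 2993.8 in the control group. Its log2 fold change was -0.11 ± 0.10, and control replicate 3 equalled the highest knockout value to the digit printed.

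The subunits of the ubiquinone module gave a similar picture. Ndufs8, which carries a pair of iron-sulphur clusters, read 3886.8, 3742.2 and 4178.1 in the knockout and 4596.7, 4431.4 and 3739.1 in the control arrays. The first 2 controls lay above all knockout values and control replicate 3 below them. The log2 fold change was -0.11 ± 0.12 with all arrays and -0.20 ± 0.09 (SE) without control replicate 3, where limma gave an adjusted p of 0.802. Other probe sets of Ndufs8 had -0.05 ± 0.13, -0.11 ± 0.20, -0.06 ± 0.21, 0.09 ± 0.31 and, for the dimmest, -0.01 ± 0.21 with all arrays. The groups overlapped in each of them. Ndufs7, which passes electrons to ubiquinone, had -0.10 ± 0.09, and Ndufs3, another subunit of the same module, had -0.05 ± 0.09. A second, dimmer probe set of Ndufs7 read 2459.1, 2424.4 and 2752.2 in the knockout and 2980.6, 3129.4 and 3231.6 in the control arrays, without overlap. Its log2 fold change was -0.29 ± 0.11, which limma over all 45101 probe sets gave an adjusted p of 0.988.

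Among accessory subunits of the matrix arm, 7 of 8 measured had lower values, with a median log2 fold change of -0.08. Ndufa6, a small protein of the LYR family, read 3052.1, 2945.5 and 3228.5 in the knockout and 3596.4, 3515.0 and 3483.3 in the control arrays. The groups were separate, the 3 controls were close together, and the log2 fold change was -0.20 ± 0.10 (SE; limma adjusted p = 0.971), or -0.21 without control replicate 3. Ndufa2 read 2975.1, 2718.7 and 3016.3 in the knockout and 3277.0, 3177.7 and 4169.5 in the control arrays. Its difference of -0.28 ± 0.13 shrank to -0.15 without control replicate 3, its highest value. Ndufa12, which takes the place of its relative Ndufaf2 during assembly, was separate between groups by a small margin. It read 4523.9 to 4622.3 in the knockout and 4654.2 to 5074.1 in the control arrays (log2 fold change -0.08 ± 0.09). A nearly as bright probe set of Ndufa12 went the other way, at 0.20 ± 0.13, and a dimmer one had -0.25 ± 0.15. The groups overlapped in both of these.

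Ndufs4, whose loss in mice and people causes an encephalopathy with complex I deficiency, shows how control replicate 3 weighs on single genes. It read 2304.5, 1621.5 and 2089.5 in the knockout and 2503.8, 2196.0 and 1397.3 in the control arrays. The log2 fold change was 0.01 ± 0.25 with all arrays and -0.24 ± 0.17 (SE) without control replicate 3. Ndufa7, another matrix arm subunit, went from -0.11 to -0.30 in the same way (limma unadjusted p = 0.0323 and adjusted p = 0.802 without that array). The remaining members, Ndufa5, Ndufa9 and Ndufv3, lay between -0.08 and -0.03 with all arrays.

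In the membrane arm next to the matrix arm 7 of 8 genes had lower values, with a median log2 fold change of -0.08 and 0 without overlap. Ndufs5, a subunit on the intermembrane side, had the largest difference of the list with all arrays. It read 1128.1, 717.3 and 1297.6 in the knockout and 1299.1, 1440.2 and 1072.0 in the control arrays. Knockout replicate 2 was far below every other array, control replicate 3 was below knockouts 1 and 3, and the log2 fold change was -0.31 ± 0.24 (SE; limma adjusted p = 0.971). The log2 fold change was -0.43 without control replicate 3 and -0.06 without knockout replicate 2. A probe set shared between Ndufs5 and its pseudogene had -0.11 ± 0.16. Ndufa8, which also faces the intermembrane space, read 1475.0, 1476.7 and 2080.5 in the knockout and 2069.0, 1937.5 and 1711.7 in the control arrays. There the highest of all values was in the knockout group, so that the groups overlapped, and the log2 fold change was -0.20 ± 0.17.

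Other members of the proximal membrane arm had smaller differences. Ndufa1, Ndufa10, Ndufa13, Ndufc1 and Ndufa3 lay between -0.10 and -0.02 with all arrays. Without control replicate 3 they lay between -0.18 and -0.04, and Ndufa1 and Ndufc1 then had no overlap between groups. A far dimmer probe set of Ndufa10 had -0.33 ± 0.18 with all arrays, without overlap. By its brightest probe set Ndufc2 was the only one above 0, at 0.02 ± 0.13, and 0.13 without control replicate 3. Its other probe sets had -0.07 ± 0.20, -0.02 ± 0.20 and, for the dimmest, -0.002 ± 0.11 with all arrays. The first of these read 3779.2 to 4689.5 in the knockout, below 5624.5 and 5002.9 in the controls other than control replicate 3. The next read 1797.0 to 2140.1 in the knockout, below 2389.3 and 2285.4 in the same controls. The direction of Ndufc2 without that array thus depended on the probe set. Ndufc1 had the brightest probe set of the list, with a mean intensity of 9026, and its log2 fold change was -0.04 ± 0.09.

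In the distal membrane arm 7 of 11 genes had lower values, with a median log2 fold change of -0.03. Ndufb9 was the one without overlap, at 4377.4, 3796.1 and 4323.7 in the knockout and 4690.8, 4528.1 and 5063.9 in the control arrays. Its log2 fold change was -0.19 ± 0.10 (SE; limma adjusted p = 0.971), though a dimmer probe set of the same gene had 0.03 ± 0.18. Ndufb7 and Ndufb2 followed at -0.16 ± 0.12 and -0.14 ± 0.13, with the lowest value in knockout replicate 2 in both. Ndufb10 had the widest spread over the 6 arrays in this arm, with 3814.8, 2252.2 and 3656.1 in the knockout and 3200.9, 3796.0 and 2767.1 in the control arrays, and its log2 fold change was -0.03 ± 0.23. The brightest probe sets of Ndufb8 and Ndufb11 varied little across the arrays. Ndufb8, often used as the marker of complex I in protein blots, read 5372.8 to 5523.4 in the knockout and 5326.0 to 5857.9 in the control group, a log2 fold change of -0.02 ± 0.09. A dim probe set of Ndufb8 read 103.3 to 306.5, highest in control replicate 3, at -0.62 ± 0.36, and the mean of both probe sets gave -0.32. Ndufb11 had -0.03 ± 0.08.

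Most distal genes had their highest or lowest value in control replicate 3. It was the highest array for Ndufb5, Ndufb6, Ndufb7, Ndufb8 and Ndufb9, and the lowest for Ndufb1, Ndufb3 and Ndufb11. Ndufb3 read 1899.5 in control replicate 3 and 2334.8 to 3214.7 elsewhere, and its log2 fold change went from 0.05 to -0.19 without that array. Ndufb6 was highest there, at 5269.5, next highest in knockout replicate 2, at 4660.8, and between 3433.9 and 3853.3 in the other 4. Its log2 fold change was 0.005 ± 0.19 with all arrays and 0.20 ± 0.12 without control replicate 3. Ndufb5 lay at -0.04 and 0.01 in these fits. A dimmer probe set of Ndufb6 had -0.004 ± 0.11 with all arrays. It read 2170.9 to 2312.9 in the knockout and 2303.2 and 2230.8 in the controls other than control replicate 3, so that the groups overlapped.

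The single-gene probe sets of Ndufb4 and Ndufb1 gave no usable level. They read 40.3 to 45.3 and 64.4 to 71.3, in or below the range of the hepatocyte genes, and their log2 fold changes of 0.07 ± 0.04 and 0.02 ± 0.11 are those of dim probe sets. The brighter of the probe sets that Ndufb4 shares with its copies Ndufb4b and Ndufb4c read 5149.6 to 5989.9 in the knockout and 4147.5 to 6799.1 in the control arrays, at a log2 fold change of 0.01 ± 0.19. Probe sets shared by Ndufs6 with Ndufs6b and by Ndufa11 with Ndufa11b had -0.29 ± 0.13 and, for the brighter of 2, -0.26 ± 0.13. That of Ndufs6 had no overlap between groups, at 2679.4 to 3574.8 in the knockout and 3688.2 to 3986.4 in the control arrays. These shared probe sets were not counted among the 35 genes.

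The pair of genes that carry the name without belonging to complex I lay on different sides of 0 with all arrays, and both below it without control replicate 3. Ndufa4 read 2695.1, 2083.2 and 3156.7 in the knockout and 2639.2, 2890.0 and 2262.3 in the control arrays, a log2 fold change of 0.01 ± 0.18, and -0.08 without control replicate 3. Ndufa4l2 read 87.9 to 90.6 in the knockout arrays, 88.7 and 95.4 in control replicates 1 and 2, and 142.6 in control replicate 3. Its log2 fold change was -0.26 ± 0.23 with that array and -0.05 without it. Leaving both genes out, 27 of 33 subunits had lower values, with the same median of -0.08.

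**Figure D3:**
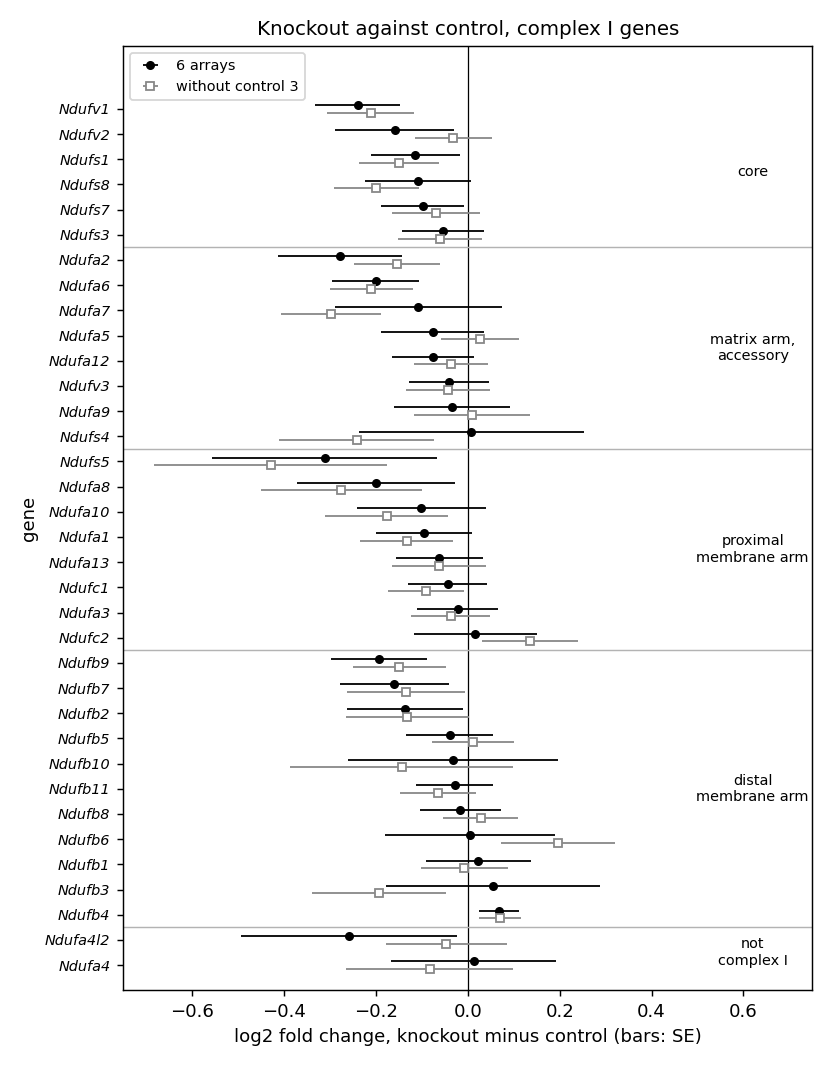
Log2 fold change of each gene, knockout minus control, with its SE from limma, over 6 arrays (filled circles) and without control replicate 3 (open squares). Of the 35 filled circles 28 lie left of 0, and Ndufs4, Ndufb3, Ndufa4l2, Ndufb6 and Ndufa7 move most when that array is left out.

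Probe sets of the same gene parted from each other most in control replicate 3. For 18 members with more than 1 probe set above an intensity of 200, the deviation of each array from the other 5 was compared between the probe sets of a gene. The median spread was 0.48 log2 units in control replicate 3 and 0.10 to 0.20 in the other arrays, and control replicate 3 had the widest spread for 11 of the 18 genes. In Ndufc2, one probe set was highest in control replicate 3, at 6348.2 against 4907.0 to 6034.2 elsewhere, while another was lowest there, at 3423.0 against 3779.2 to 5624.5. The 3 probe sets of Ndufs4 spread by 1.34 log2 units in that array. Those of Ndufv1 lay within 0.25 log2 units of each other in every array. Where in its transcript each probe set lies was not examined here.

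**Figure D4:**
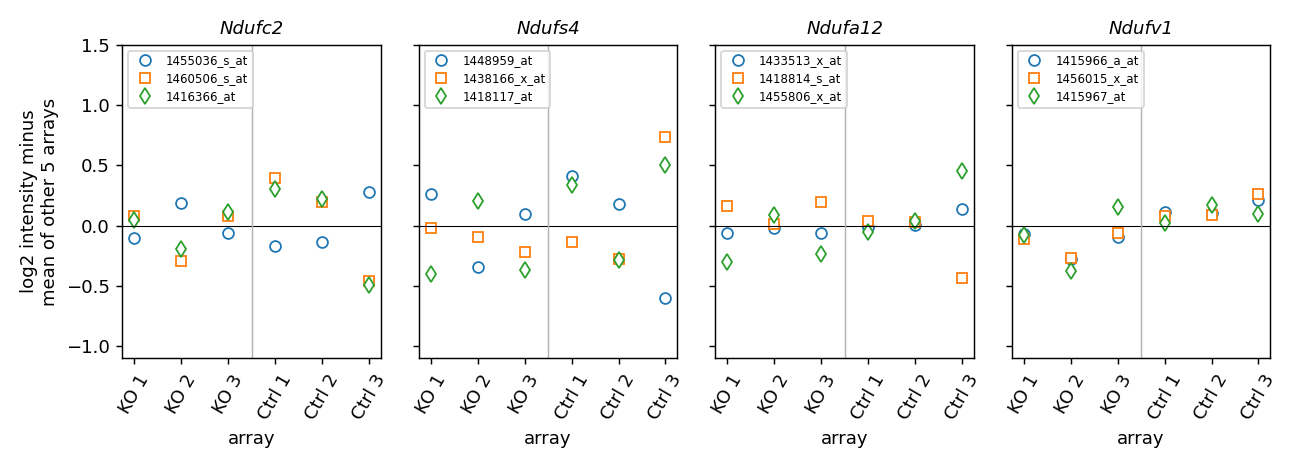
Deviation of each array's log2 intensity from the mean of the other 5 arrays, for every single-gene probe set above an intensity of 200 of 4 genes (1 symbol per probe set). In control replicate 3 the probe sets of Ndufc2, Ndufs4 and Ndufa12 lie on both sides of 0, whereas those of Ndufv1 stay together.

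Over all probe sets of the list the direction was as frequent as over the chosen ones. Of 73 single-gene probe sets 59 had lower values in the knockout, against 54.4% of all 45101 probe sets, with a median log2 fold change of -0.06. No overlap was seen in 8 of the 73, against 7.66% of all probe sets. Of the 18 genes with several brighter probe sets, 9 had all of them on one side of 0, and 9 did not.

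Genes that build complex I or regulate mitochondrial genes were read as separate lists, and their difference from the subunits was not tested. Of 15 assembly factors 8 had lower values, with a median log2 fold change of -0.02, and limma called 0. Without control replicate 3 there were 11 of 15 lower, with a median of -0.06. Timmdc1, an inner membrane protein that assembles the membrane arm, had higher values in the knockout. It read 1387.6, 1354.8 and 1050.9 in the knockout and 672.5, 710.8 and 772.5 in the control arrays, with a wide gap between groups. The log2 fold change was 0.81 ± 0.16 (SE; limma unadjusted p = 0.00145, adjusted p = 0.971), and 0.86 without control replicate 3. Timmdc1 had 1 probe set, so the difference was read once. Ndufaf5, which modifies Ndufs7 during assembly, had -0.27 ± 0.14 (SE) and no overlap, at 611.8 to 682.4 in the knockout and 735.1 to 844.7 in the control arrays.

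Of 14 regulators of mitochondrial genes 6 had lower values, with a median of 0.03, and limma called 0. Without control replicate 3, 8 of 14 were lower and the median was -0.01. Tfb1m, which methylates mitochondrial ribosomal RNA, read 194.6 to 249.2 in the knockout and 285.0 to 303.2 in the control arrays, without overlap, at -0.37 ± 0.19. Yy1, a zinc finger factor that binds many promoters of mitochondrial genes, read 1670.7, 1680.3 and 1418.4 in the knockout and 1401.2, 1335.4 and 514.2 in the control arrays. Its log2 fold change of 0.68 ± 0.38 rested largely on control replicate 3 and was 0.21 without it.

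Promoters of members were searched on both strands for the letters of factors known for such genes. RefSeq promoters of 300 bases (GRCm38.p6, 250 before and 50 after the start) were found for 31 of the 35 genes. The YY1 letters AAGATGGCG were in 4 of 31 members, or 12.9%, against 1.64% of all genes with a promoter. The ETS letters CCGGAAG, bound by GABP among others, were in 4, against 9.93%, and the SP1 letters GGGCGG in 14, or 45.2%, against 38.2%. The palindromic NRF1 motif and the letters TCAAGGTCA of oestrogen-related receptors were in 0 members, against 1.07% and 0.466% of all genes. The ETS and YY1 letters can overlap, since one ends as the other begins. The 4 matches to YY1 all lay on the gene's strand and after the start, with their first base 23 to 36 bases from it. Whether the ATG that these letters hold is a start codon was not examined. The matches are shown in capitals with their surroundings because their letters recur in different subunits.
Ndufa9: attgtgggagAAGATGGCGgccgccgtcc
Ndufc1: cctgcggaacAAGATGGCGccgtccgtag
Ndufs4: cgtttgcctacaggAAGATGGCGgcggtc
Ndufs7: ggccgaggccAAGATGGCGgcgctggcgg
They lie at chr6:126849097-126849125, chr3:51408915-51408943, chr13:114388045-114388073 and chr10:80249463-80249491, the last on the plus strand and the others on the minus strand. The log2 fold changes of these 4 genes, -0.03, -0.04, 0.01 and -0.10, had no common size.

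Genes of complexes II to V also had lower values more often than not, and their difference from the complex I list was not tested. Of 38 measured, 26 were lower, with a median log2 fold change of -0.04, 0 called by limma and 3 without overlap, against the 9.01% of all genes. Without control replicate 3, 27 were lower, and 17 had no overlap, 9 lower and 8 higher, against 24.5% of all genes. Atp5d, the delta subunit of ATP synthase, read 6616.1, 6418.5 and 6463.0 in the knockout and 7619.1, 7218.9 and 8240.1 in the control arrays, without overlap, at -0.24 ± 0.09 (SE; limma adjusted p = 0.971). Cox6a2, the muscle form of a complex IV subunit, had -0.31 ± 0.16 with overlap, and -0.44 without control replicate 3. The sum over the list was 193806, 180273 and 198223 in the knockout and 193361, 199052 and 198917 in the control arrays. Knockout replicate 2 was again the lowest, and without it the knockout mean was 0.556% lower than that of the controls.

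Slow fibre markers differed between arrays more than complex I genes did, with a median range over the 6 arrays of 3.80 log2 units against 0.33. The skeletal fibre markers, fast isoforms among them, had a median range of 0.33 as well. All 7 slow fibre markers had higher values in the knockout, with a median log2 fold change of 0.87, and limma called 0. That direction rested largely on control replicate 1, at a median of -3.11 log2 units from the other 5 arrays over these markers. Control replicates 2 and 3 lay at 0.21 and 1.08, and knockout replicates 1 to 3 at 0.13, 1.09 and 0.21. The summed intensity of these markers was 8421 to 13976 in the knockout arrays and 2057 to 13605 in the control arrays. The lowest sum was in control replicate 1. The lowest reading of any slow marker, 72.2, was that of Tnni1 in the same array. Control replicates 1 and 2 differed far more in slow fibre sums, 2057 and 8473, than in complex I sums, 147773 and 148462. Of 8 skeletal fibre markers 7 had higher values, with sums of 69453 to 73647 in the knockout and 64865 to 68473 in the control arrays, which did not overlap. The part of fibre makeup in the complex I differences was not tested. Markers of adipocytes (5 of 5 higher) and of endothelium (5 of 7 higher) had summed intensities of 1471 to 3497 and 2202 to 2299 in the knockout. In the control arrays these were 867 to 2299 and 1860 to 2103. Macrophage markers had 5 of 7 lower, with sums of 5381 to 9060 and 6383 to 9896. Without control replicate 3, 3 of 5 adipocyte and 6 of 7 endothelial markers were higher, and 7 of 7 macrophage markers were lower. The median log2 fold change of the adipocyte markers was 0.58 with that array and 0.10 without it. Their part in the complex I values was likewise not tested.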

How the data were processed

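RNA from quadriceps muscle was amplified, biotin-labelled and hybridised to Affymetrix mouse arrays, 1 per sample, 3 knockout and 3 control. The deposited values are linear probe set intensities, 45101 per array, made by the authors with GCOS and RMA, per the submitters' processing notes. For versions, background correction and scaling, the sources used here give nothing. Medians per array were 56.6 to 58.6.

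Of the probe sets 34958 had 1 gene symbol in the platform annotation, 932 had several and 9211 were not listed; 34754 matched RefSeq by Entrez ID with 0 symbols changed. The brightest single-gene probe set stood for each of 18194 genes. Log2 intensities, without pseudocount, entered limma 3.58.1 under R 4.3.3, in a model holding group alone whose eBayes step used a variance trend. Two-sided p-values of all genes were adjusted together by Benjamini-Hochberg, and 0.05 was the threshold. The script was tested on simulated data. The number of arrays limits precision, and an exact permutation test of 3 against 3 cannot go below 0.1. Promoters were searched in Python 3.11.15.

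The members and all gene lists, including markers and motifs, were chosen with earlier results of these data known. Genes named with values were the core subunits, members without overlap between groups, those with the smallest p and the extreme fold changes of each structural group, the brightest and dimmest members, Ndufa4 and Ndufa4l2, and the 2 smallest p of each comparison list. Other genes, such as Ndufa7, Ndufb8 and Ndufb10, were named after their values were seen. Alternatives were the replicate block, quantile normalization, median centring, array weights, no variance trend, genes above the median level, the mean of a gene's probe sets, and leaving out arrays.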

Additional observations from a re-analysis of the deposited data

How the results depend on the processing

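The count of complex I genes past the threshold was 0 in the main setting and in all 14 alternatives, where the lowest limma adjusted p of any member was 0.416, with array weights. Between 25 and 32 of the 35 genes had lower values in every setting, and 19 members were lower in all of them. The count at an unadjusted p under 0.05 was 1, and became 0 with the replicate block, with median centring and with the mean of a gene's probe sets, 2 without a variance trend, 4 with array weights, 4 without both arrays of high Gapdh ratio (control replicate 3 and knockout replicate 2), and 0 to 1 when 1 array was left out. The share of all genes under that p was 2.07%, 2.29% and 2.52% in the first 3 of these settings, then 4.32%, 10.2% and 7.49%, and 1.52% to 5.99% when 1 array was left out. Replicate numbers were not taken as pairs in the main model, and the labels do not state a pairing. Same-numbered samples correlated at 0.19, -0.15 and -0.11 in their deviations from group means. These values cannot decide whether samples were paired, since deviations from a mean of 3 arrays are not independent and control replicate 3 stood apart. The count without overlap was 5 (9.01% of all genes), and became 2 with median centring (7.22%) and 17 without both arrays (38.3%). It was 6 to 14 when 1 array was left out, the highest without control replicate 3 (24.5% of all genes). Leaving out arrays can only add genes without overlap, among members and all genes alike. The median log2 fold change was -0.08, became -0.043 without both arrays, and ran from -0.11 (without knockout replicate 3) to -0.031 (without knockout replicate 2).

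Some log2 fold changes near 0 changed sign. Quantile normalization gave -0.0050 for Ndufa4, -0.00072 for Ndufb6, -0.0021 for Ndufc2 and -0.019 for Ndufs4. Array weights gave 0.042 for Ndufa5, 0.075 for Ndufa9, -0.023 for Ndufb1, 0.043 for Ndufb10, -0.11 for Ndufb3, 0.040 for Ndufb5, 0.032 for Ndufb8 and -0.16 for Ndufs4. The mean of a gene's probe sets gave 0.0027 for Ndufb11, -0.019 for Ndufc2 and -0.13 for Ndufs4. Without both arrays the values were 0.0073 for Ndufa13, 0.049 for Ndufa5, 0.10 for Ndufa9, -0.039 for Ndufb1, 0.099 for Ndufb10, -0.067 for Ndufb3, 0.035 for Ndufb5, 0.039 for Ndufb8 and -0.096 for Ndufs4. Leaving out 1 array at a time gave -0.10 to 0.0083 for Ndufa13, -0.049 to 0.0082 for Ndufa3, -0.13 to 0.17 for Ndufa4, -0.14 to 0.027 for Ndufa5, -0.11 to 0.060 for Ndufa9, -0.0082 to 0.047 for Ndufb1, -0.17 to 0.21 for Ndufb10, -0.064 to 0.014 for Ndufb11, -0.19 to 0.19 for Ndufb3, -0.096 to 0.011 for Ndufb5, -0.11 to 0.20 for Ndufb6, -0.041 to 0.028 for Ndufb8, -0.058 to 0.13 for Ndufc2, -0.24 to 0.18 for Ndufs4 and -0.080 to 0.00065 for Ndufv3. The cause was not tested. Dim signal limits Ndufb1, Ndufb4 and Ndufa4l2.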
